A study of Mus musculus with 4 samples.

Results

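Pax7 binding at 7 other genes of its own family, Pax3, Pax2, Pax5, Pax8, Pax6, Pax1 and Pax9, was examined in the Pax7 ChIP-seq peak list of muscle progenitors. A peak was assigned to a gene when its summit, the base of highest signal, lay between 100 kb before the start and 100 kb after the end of that gene in the GENCODE annotation of the mm9 (NCBIM37) mouse genome. This rule placed 15 of 20579 peaks at the 7 genes, which are 7 of 22367 annotated protein-coding genes. Pax7 itself was left out, and not every other gene of the family was included. The cells were iPax7 progenitors, derived from mouse ES cells in which a Pax7 transgene is switched on by doxycycline (Dox). All libraries came from this +Dox state: 1 µg/ml Dox was given from day 3 of differentiation, PDGFRα+FLK1- cells were sorted on day 5, and cells were harvested on day 9 after 6 days of Dox. Pax7 was precipitated in 2 libraries, set against 2 inputs, and no library from cells without Dox was analysed here. Because the authors called peaks on merged replicates, no value below has a spread between replicates, and no test between conditions was possible. The list holds no read counts, so the depth behind a peak is unknown from it.

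Pax proteins are transcription factors that bind DNA through a paired domain, and in Pax3, Pax7 and Pax6 also through a full homeodomain. Pax3 is the closest relative of Pax7 and acts with it upstream of the myogenic factors in embryonic muscle progenitors. Pax2, Pax5 and Pax8 form a second subfamily, with roles in kidney and ear, in B lymphocytes and in thyroid, while Pax6 is known for eye, brain and pancreas and Pax1 and Pax9 for the sclerotome, the precursor of the vertebral column.

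The DNA under the summits is shown first for the peak of highest fold enrichment at each gene that had one, since the binding of Pax7 is to sequence. A further pair, the peak next to the start of Fam178a and a peak upstream of Pax3 beyond the 100 kb limit, was added after their values were seen. Each run is the plus strand of mm9 for 50 bases on either side of the summit. Capitals mark the paired-domain core GTCACG, its first 5 bases GTCAC, or a homeodomain dimer (TAAT and ATTA, 2 or 3 bases apart), on either strand, so that GTGAC is GTCAC read from the minus strand.
Pax3 intron (chr1:78156421-78156521): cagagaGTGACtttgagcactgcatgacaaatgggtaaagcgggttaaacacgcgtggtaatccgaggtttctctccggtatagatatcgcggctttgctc
Pax2 downstream (chr19:45003447-45003547): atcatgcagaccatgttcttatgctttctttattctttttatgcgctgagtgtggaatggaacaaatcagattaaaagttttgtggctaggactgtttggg
Pax2 downstream, nearest Fam178a (chr19:45005199-45005299): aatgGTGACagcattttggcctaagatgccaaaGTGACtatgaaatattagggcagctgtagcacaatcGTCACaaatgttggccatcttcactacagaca
Pax5 intron (chr4:44715306-44715406): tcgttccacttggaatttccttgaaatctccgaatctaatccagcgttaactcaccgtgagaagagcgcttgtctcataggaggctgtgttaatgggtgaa
Pax8 upstream (chr2:24365735-24365835): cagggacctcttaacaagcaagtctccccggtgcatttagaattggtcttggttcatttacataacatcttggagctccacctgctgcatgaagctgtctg
Pax6 downstream (chr2:105550804-105550904): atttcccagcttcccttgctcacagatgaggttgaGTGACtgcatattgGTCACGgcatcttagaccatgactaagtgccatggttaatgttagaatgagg
Pax3 upstream (chr1:78368225-78368325): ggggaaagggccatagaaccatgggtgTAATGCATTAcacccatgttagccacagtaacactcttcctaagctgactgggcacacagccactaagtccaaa
Among the 15 assigned peaks GTCACG was present only in the Pax6 sequence, and the homeodomain dimer shown is in the peak beyond the limit. The Pax5 and Pax8 sequences and the stronger Pax2 sequence held none of these letters.

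Peaks were unevenly spread over the family. Pax2 had 7 peaks and Pax5 had 5, whereas Pax3, Pax6 and Pax8 had 1 each and Pax1 and Pax9 had 0. Thus 5 of the 7 genes (71.4%) had a peak in the window, against a background of 75.2% of all protein-coding genes, and the median was 1 peak per Pax gene against 2 for all protein-coding genes. Per length, the 7 windows held 7.89 peaks per Mb over 1.90 Mb, and the whole list 8.05 peaks per Mb of sequenced genome. The median per gene was 3.92 peaks per Mb for the Pax genes and 9.16 for all protein-coding genes, and this difference was not tested. The share of Pax genes with a peak was thus near the background. The total per length was near that of the whole sequenced genome, which was not taken over gene windows. That total includes 6 peaks close together beyond the end of Pax2. Single genes differed more. Pax2 had 24.8 peaks per Mb of its window, more than 91.1% of protein-coding genes, and Pax5 had 13.1, more than 63.8%. Pax6 with 4.27, Pax8 with 3.92 and Pax3 with 3.38 peaks per Mb exceeded between 26.3% and 29.5% of protein-coding genes.

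**Figure D1:**
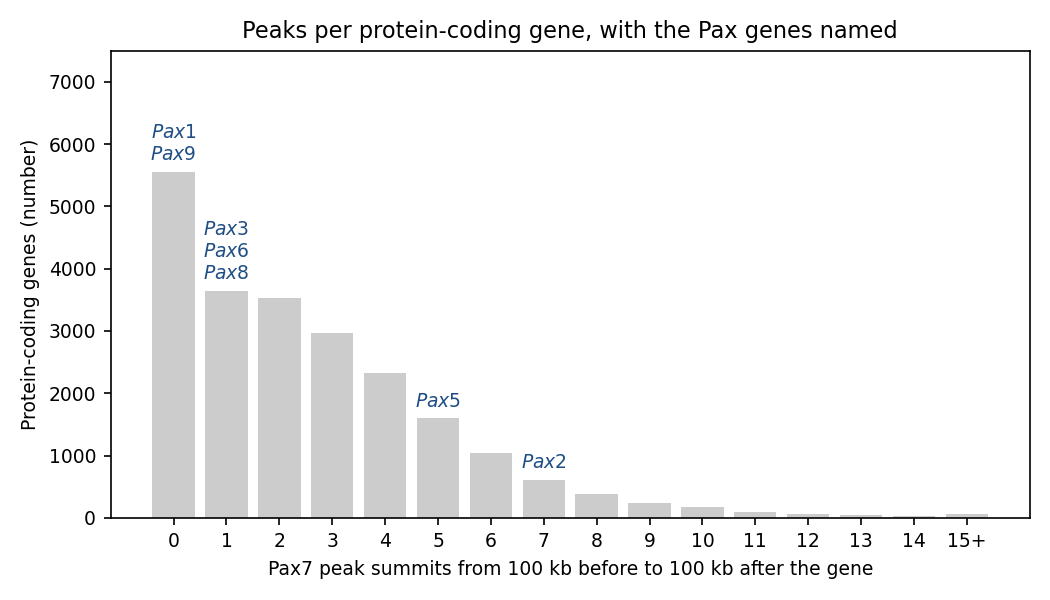
Number of Pax7 peak summits from 100 kb before to 100 kb after each gene (horizontal axis) against the number of protein-coding genes with that count (bars), with the Pax genes named above their bar. Pax1 and Pax9 stand at 0, Pax3, Pax6 and Pax8 at 1, Pax5 at 5 and Pax2 at 7 peaks.

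Fold enrichment, the authors' ratio of ChIP signal over local background at the summit, had a median of 4.65 over the 15 peaks, which spanned 3.20 to 8.89. The median over all peaks was 5.22. Of the 15, 6 reached 5-fold, against 54.9% of all peaks. They fell into a lower set of 9 peaks between 3.20 and 4.79, a single peak at 5.44, and 5 peaks between 7.98 and 8.89, with 1 of these 5 at Pax3, 3 at Pax2 and 1 at Pax5. The −log10 q, a measure of how far the signal exceeds the background after correction for the number of tests, ran from 4.72 to 29.9 with a median of 11.6, the same as the 11.6 of all peaks. Median width was 256 bp (range 174 to 553 bp) against 252 bp for the list. The GC content within 50 bp of the summit had a median of 45.5% in both.

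**Figure D2:**
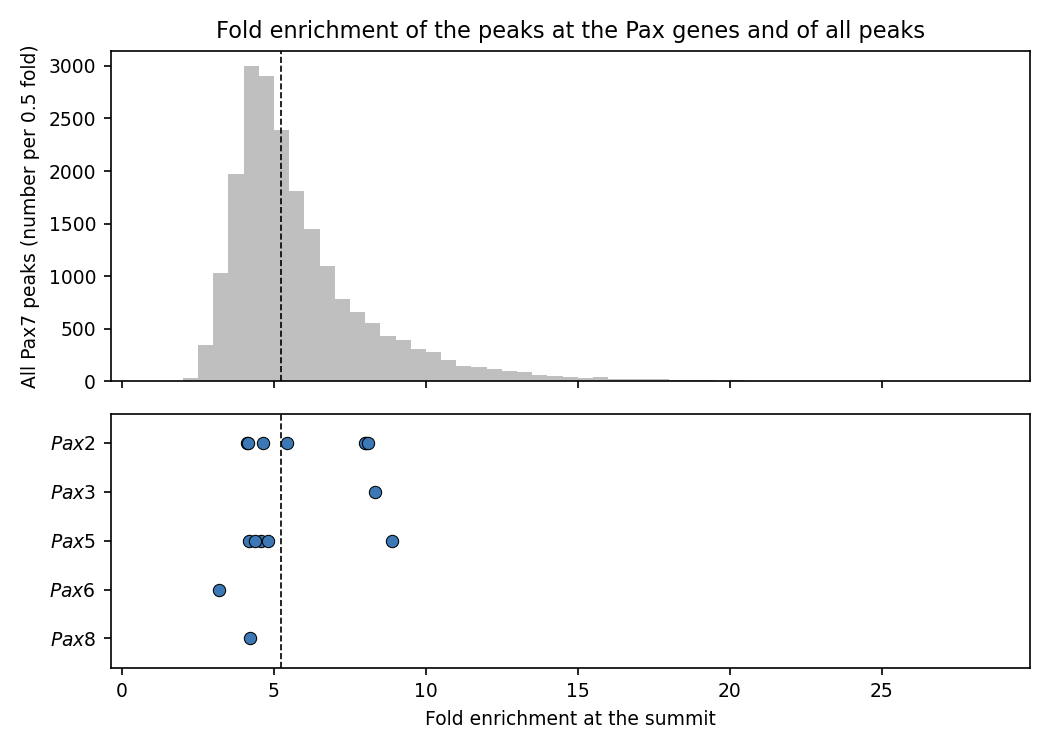
Fold enrichment at the summit (horizontal axis, ratio) for all 20579 Pax7 peaks as a histogram (upper panel, number of peaks per 0.5 fold) and for each of the 15 peaks at the Pax genes as a point (lower panel). The dashed line is the median of all peaks, 5.22, and 6 of the 15 points lie to its right.

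By position, 5 of the 15 summits lay upstream of their Pax gene, 3 inside it and 7 downstream. All 15 lay in introns (7) or between genes (8), with 0 in exons. The shares of all peaks in these places were not computed, so these counts have no background. The nearest summit to the annotated start of a Pax gene, its transcription start site (TSS), was 8.96 kb away at Pax5, and the farthest 175 kb away at Pax2. For 10 of the 15 peaks the nearest protein-coding TSS was not that of the Pax gene but that of a neighbour, Fam178a for 6 and Zcchc7 for 4. Assignment by window therefore does not tell which gene a peak acts on. Summits within 1 kb of the TSS of any transcript numbered 4 of 15 (26.7%, 95% Wilson interval 10.9% to 52.0%), against 16.3% of all peaks. Intervals here and below cover counting error only. They treat the 15 peaks as independent, although peaks at the same gene share a locus and are not replicates, so they may be too narrow.

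**Figure D3:**
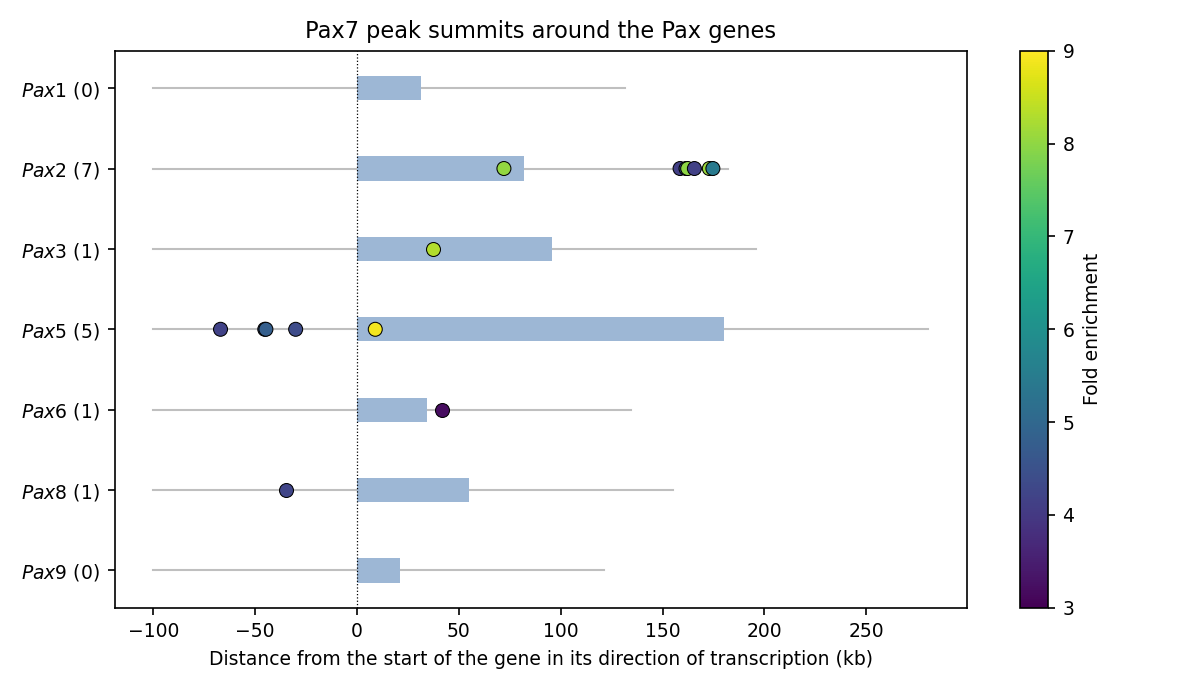
Summits of the 15 Pax7 peaks (points) by distance from the start of each Pax gene in its direction of transcription (horizontal axis, kb), with the gene drawn as a bar, the 100 kb searched beyond each end as a line, and fold enrichment as colour from 3 to 9. The number of peaks follows each name. Points crowd beyond the end of Pax2 and before the start of Pax5, and Pax1 and Pax9 have none.

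At Pax3 (minus strand of chromosome 1, 78097842 to 78193709), the single peak lay within the gene. It ran from 78156323 to 78156582 in intron 4 of the coding transcript with most annotated exons, and its summit was 37.2 kb from the TSS. Its fold enrichment of 8.32, with a −log10 q of 26.8, exceeded that of 86.4% of all peaks and was second to the Pax5 intron among the 15. No GTCACG lay within 50 bp of the summit, and the nearest 5-base GTCAC was 42.0 bp from it. The control word GCACTG was also present, 31.5 bp from the summit.

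No further summit lay within the limit around Pax3, and the nearest outside it were on very different scales to either side. Downstream, the next peak was 299 kb past the gene end (77798534 to 77798710) with 4.01-fold enrichment. Upstream, the next peak was 141 kb from the TSS. When the window was widened to 200 kb, the count at Pax3 went from 1 to 4, with all 3 added peaks in introns of the neighbouring Sgpp2, which encodes a sphingosine-1-phosphate phosphatase. These were at 141 kb (78334892 to 78335217, 10.1-fold), 175 kb (78368096 to 78368554, 12.0-fold) and 199 kb (78392465 to 78392660, 4.53-fold). The peak at 175 kb exceeded 96.7% of all peaks in fold enrichment and held the homeodomain dimer shown above, 18.5 bp from its summit. The first pair thus had higher fold enrichment than any of the 15 peaks inside the limit, while their nearest protein-coding TSS was that of Sgpp2, 28.1 and 61.4 kb away.

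The row of peaks upstream of Pax3 went on, with 8 summits up to 350 kb from the gene, a limit set after the values were seen. Their fold enrichment ran from 3.84 to 12.8. The next 3 were in introns of Farsb, which encodes a subunit of phenylalanyl-tRNA synthetase, at 225 kb (5.60-fold), 266 kb (3.84-fold) and 271 kb (7.20-fold). The following peak, at 294 kb, was intergenic and 2.45 kb from the Farsb TSS, with 4.88-fold enrichment and GTCACG 11.5 bp from its summit. The strongest, 335 kb upstream in an intron of Mogat1 (78529029 to 78529495), was enriched 12.8-fold (−log10 q 82.8), and GTCACG occurred within 50 bp of its summit on both sides of it. Its nearest protein-coding TSS was that of BC035947, 20.7 kb away. How many genes have 8 summits within 350 kb upstream was not computed, so this row of peaks has no background. In the promoter contacts of the study, of which a shortened copy was used for lookup, 5 fragments were paired with Pax3, and 0 Pax7 summits or peaks overlapped them. Of these 5 contacts, 2 were classed by the study as common to cells with and without Dox, 2 as enriched without Dox and 1 as common to ES and iPax7 cells, whereas the peaks come from +Dox cells alone. On the upstream side, fragments were centred 220, 223, 251 and 252 kb from the TSS, within the stretch that holds the row of peaks. The summit at 225 kb was the nearest to any fragment, 1.99 kb from that at 220 kb and 1.68 kb from that at 223 kb. For those at 251 and 252 kb the nearest summit was 14.2 and 13.1 kb away. The remaining fragment lay 232 kb from the TSS on the downstream side, 162 kb from a summit. The single fragments paired with Pax8, a contact classed as enriched in ES cells, and with Pax9, common to ES and iPax7 cells, also held 0 peaks. The share of all paired fragments that hold a peak was not computed. These counts of 0 thus have no background and do not show that peaks avoid the contacts of Pax genes.

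Pax2 (plus strand of chromosome 19, 44830539 to 44912758), a regulator of kidney, optic nerve and inner ear development, had the most peaks. Only the first of the 7 was inside the gene, in intron 8 of the coding transcript with most exons and 72.1 kb from the TSS (44902524 to 44902785). Its fold enrichment was 8.02 (−log10 q 23.9). The nearest protein-coding TSS to this peak was that of Pax2, and the peak held the control word but no Pax motif.

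The other 6 peaks of Pax2 lay together between genes, from 76.4 to 92.5 kb past the gene end, after a gap of 86.5 kb without a summit. They occupied 16.4 kb, with 821 bp to 7.34 kb between neighbouring summits, where the median gap over the whole list was 46.3 kb. The highest in the row, from 45003310 to 45003645, was enriched 8.09-fold (−log10 q 29.9) and stood 2.11 kb before the TSS of Fam178a, which encodes a partner of the SMC5-SMC6 complex in DNA repair. Next came the peak from 44992636 to 44993037, at 7.98-fold and 12.7 kb before the same TSS. The peak from 45005103 to 45005422, at 5.44-fold, was 360 bp from that TSS and held GTCAC 3 times, 15.0, 21.0 and 44.0 bp from its summit. The peak from 44991946 to 44992127 had 4.65-fold enrichment, and the 31 bases around its summit had 1 other copy in the genome. The remaining 2 had 4.11-fold and 4.16-fold. All 6 were nearer to Fam178a than to any other protein-coding TSS, and none held GTCACG, the composite site or the homeodomain dimer within 50 bp of the summit. This row of peaks was singled out after its values were seen.

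**Figure D4:**
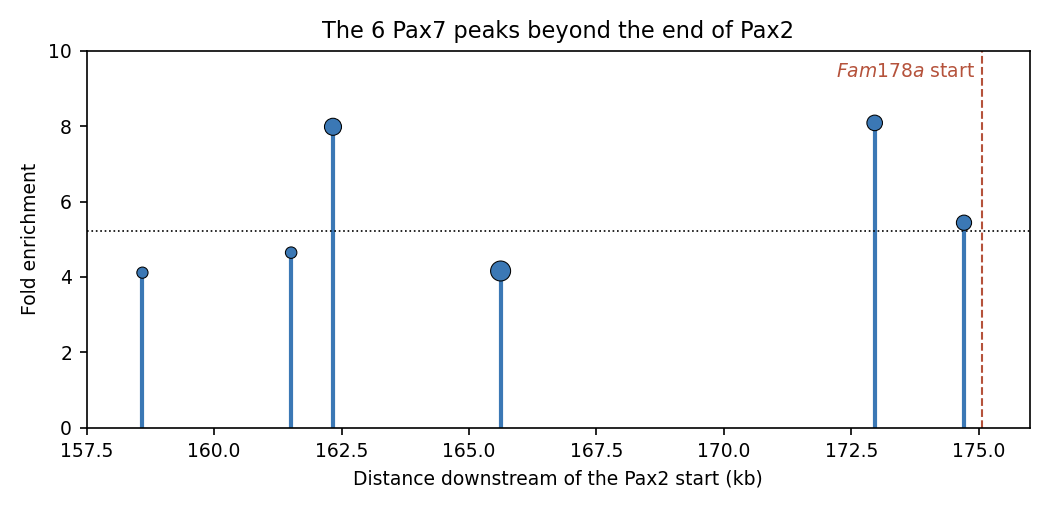
The 6 Pax7 peaks beyond the end of Pax2 by distance of the summit from the Pax2 start (horizontal axis, kb) and fold enrichment (vertical axis, ratio, from 0), with the area of each point in proportion to peak width. The dashed line is the start of Fam178a and the dotted line the median fold enrichment of all peaks, 5.22; the peaks at 7.98, 8.09 and 5.44 rise above it.

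Pax5 (minus strand of chromosome 4, 44544017 to 44724318), which fixes the identity of B lymphocytes and acts in midbrain development, held the strongest of the 15 peaks. It ran from 44715207 to 44715523 in the first intron, 8.96 kb from the TSS. Enrichment there was 8.89-fold (−log10 q 27.8), above 89.0% of all peaks. It was also the only 1 of the 15 within 1 kb of an annotated start of a Pax transcript, being 929 bp from 1 such start of Pax5. No GTCAC was found within 50 bp of its summit.

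The other 4 peaks at Pax5 were upstream, near or inside the divergent neighbour Zcchc7, which encodes an RNA-binding factor of nuclear RNA decay. The nearest to Pax5 was intergenic, 30.1 kb upstream (44754335 to 44754590), with 4.36-fold enrichment. A close pair at 44.7 and 45.3 kb upstream lay just inside Zcchc7, with summits 296 and 843 bp from its TSS. These had 4.79-fold (44768900 to 44769152) and 4.56-fold (44769531 to 44769743) enrichment, and each held GTCAC, 24.0 and 13.0 bp from its summit. When peaks within 500 bp were merged the pair counted as 1. The farthest, 67.0 kb upstream in an intron of Zcchc7 (44791274 to 44791447), had 4.19-fold enrichment and held GTCAC 6.0 bp from its summit. All 4 were thus below the median of the list, and only the intronic peak of Pax5 was above it.

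Pax8 (minus strand of chromosome 2, 24276071 to 24331119), a regulator of thyroid and kidney development, had a single intergenic peak 34.7 kb upstream (24365667 to 24365892). Its fold enrichment of 4.22, with a −log10 q of 11.6, exceeded 23.2% of all peaks, and no GTCAC was found around its summit. This peak stood alone: the next summits were 443 kb upstream and 1352 kb past the end of the gene. Between the Pax8 peak and the next summit on the other side of the TSS there were 1442 kb, with 0 unsequenced bases and 16 protein-coding TSSs. A longer stretch around the TSS was found for 10.6% of protein-coding genes, for which the median was 208 kb.

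At Pax6 (plus strand of chromosome 2, 105509053 to 105543317), the regulator of eye development, the single peak was the weakest of the 15 and the only one with the paired-domain core. It lay 7.54 kb past the gene end and 41.8 kb from the TSS, in an intron of Elp4 (105550772 to 105550965). Elp4 encodes a subunit of the Elongator complex, and its introns are known to hold distant enhancers of Pax6. Enriched 3.20-fold (−log10 q 4.72), this peak exceeded 3.24% of all peaks, and it was lost when a −log10 q of at least 5 was required. GTCACG was centred 1.5 bp from the summit, and a further GTCAC lay 13.0 bp from it. Within 200 kb there was a second peak, 153 kb upstream (105356408 to 105356609), at 4.01-fold with a homeodomain dimer 33.5 bp from the summit.

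Pax1 (chromosome 2, 147187661 to 147219031) and Pax9 (chromosome 12, 57792754 to 57813809), which act in sclerotome, had no peak in windows of 25, 50, 100 or 200 kb. Their nearest summits were 326 kb and 330 kb from the TSS. Only 10.2% and 10.0% of protein-coding genes had a nearest summit farther from the TSS, where the median was 40.1 kb. The summits on either side of the TSS were 728 kb apart at Pax1 and 787 kb apart at Pax9. Since a peak is listed only past the q-value cut-off, weaker binding at these genes cannot be read from the list.

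The width of the window mattered most for Pax2, Pax5 and Pax3. Within 25 kb beyond each end, Pax2, Pax3, Pax5 and Pax6 had 1 peak each and the other 3 genes 0. At 50 kb Pax5 rose to 4 and Pax8 to 1. The 6 further peaks of Pax2 entered only between 50 and 100 kb, and at 200 kb the counts were 9 for Pax2, 5 for Pax5, 4 for Pax3, 2 for Pax6 and 1 for Pax8. The median over all protein-coding genes went from 0 to 1, 2 and 4 over the same widths, and the share with a peak from 49.8% to 62.1%, 75.2% and 84.6%. Both peaks added at Pax2 were at other genes, in a UTR 11 bp from the Mrpl43 TSS at 8.25-fold and in a coding exon of Lzts2 at 6.63-fold. The Lzts2 peak held GTCACG 43.5 bp from its summit.

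**Figure D5:**
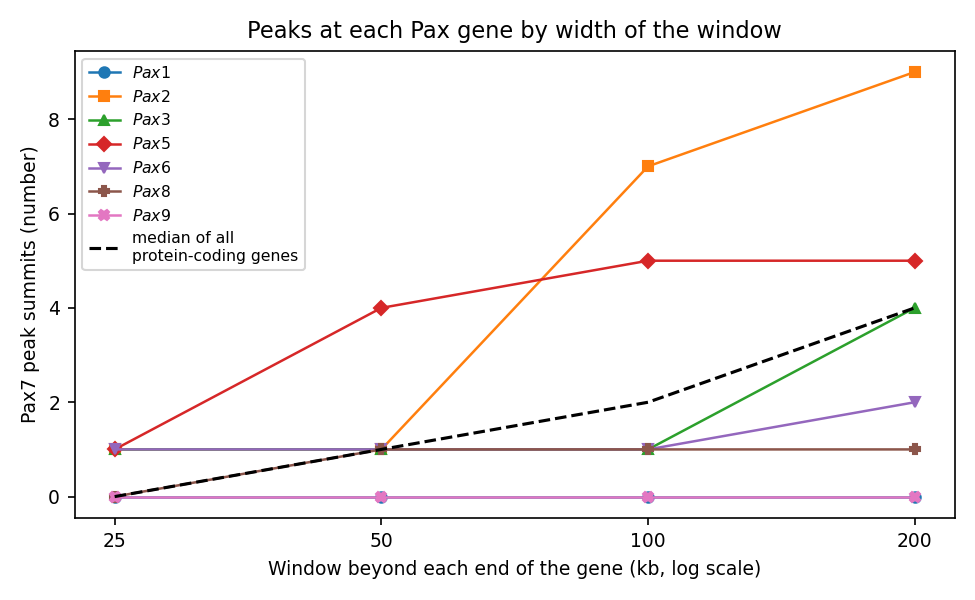
Number of Pax7 summits at each Pax gene (vertical axis) for windows of 25, 50, 100 and 200 kb beyond each end (horizontal axis, log scale), with the median of all protein-coding genes dashed. Pax2 rises from 1 to 7 between 50 and 100 kb, Pax3 from 1 to 4 between 100 and 200 kb, and Pax1 and Pax9 stay at 0.

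In sequence, GTCACG occurred within 50 bp of the summit in 1 of the 15 peaks (6.67%, Wilson interval 1.19% to 29.8%), against 11.1% of all peaks. Any of 3 Pax motifs, which adds the composite ATTAGTCAC and the homeodomain dimer and in which GTCACG and the composite can overlap, was likewise present in 1 of 15, against 13.7% of all peaks. In windows of the same length 500 bp to either side, a Pax motif was found beside 0 of the 15, against 1.84% and 1.98% of all peaks. The control GCACTG, a word of the same length as the core but without its CG, was found in 2 of 15 against 6.86%. In the windows 500 bp to either side, GTCACG alone was found beside 1.24% and 1.31% of all peaks. The control was not counted there, so it is not shown to match the core in frequency. The shorter GTCAC, searched after the other counts were seen and contained in every GTCACG match, occurred in 8 of 15 (53.3%, Wilson interval 30.1% to 75.2%), against 31.9% of all peaks. With 15 peaks these intervals are wide, and those of GTCACG, of any Pax motif and of the control include the share in all peaks. The interval for GTCAC also includes it. These words were thus not shown to be rarer or more frequent at the Pax genes than elsewhere.

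At the Pax promoters themselves, RefSeq sequences from 250 bases before to 50 after the start (GRCm38.p6 build) were found for 6 of the 7 genes, with 9 entries in all; Pax3 was not among them. GTCACG was present in 3 of the 9, against 8.22% of 32851 promoters in the table. Alternative starts of the same gene count separately among the 9, as for Pax6, and the difference was not tested. The matches were 33 bases before the start of Pax1 and 78 and 189 bases before alternative starts of Pax6, all on the strand opposite to the gene. The nearest Pax7 summit to the TSS of Pax1 was 326 kb away, and no summit was nearer than 18214 bp to an annotated start of Pax6, so these matches had no peak. How many of all 2701 promoters with GTCACG have a peak was not computed, so this absence has no background.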

How the data were processed

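Pax7 ChIP-seq was performed on 2 ChIP and 2 input libraries of +Dox iPax7 cells, and the methods call the replicates biological. By the methods, bowtie2 alignments to mm9 were freed of duplicates (Picard), the replicates were merged, and the authors ran MACS2, keeping peaks with a q-value under 0.01. The deposited list gives 1 value per peak for all libraries together. The authors computed its fold enrichment as the ratio of ChIP to local background, its −log10 q is the value deposited by the authors, and its other deposited column used here is the summit position. The score and the −log10 p columns were not used. No column of per-sample values was present (0 columns), so pairing of replicates could not be examined.

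Summits were placed on the NCBIM37 genome and GENCODE vM1 of that build, with 1-based coordinates, using pysam 0.24.0, pandas 2.3.3, numpy 2.4.6 and, for intervals, scipy 1.17.1 under Python 3.11.15 (figures: matplotlib 3.10.9). The TSS is the 5′-most start of a gene. Motifs were searched on both strands. Shares carry 95% Wilson intervals. The counting and motif steps were tested on simulated data. The genes and rules were chosen with earlier results of these data known. For genes with up to 6 peaks each peak is named, and for Pax2 the 5 of highest fold enrichment and the one nearest the TSS. The peaks upstream of Pax3 beyond 200 kb, the row of peaks beyond Pax2, GTCAC and 2 of the printed sequences were picked with their values in view. Alternatives were windows of 25, 50 and 200 kb, a minimum of 5 on fold enrichment or on −log10 q, peaks merged within 500 bp, any overlap with the window, assignment to the nearest TSS, motif windows of 25 and 100 bp, 5 kb or protein-coding TSSs, and all annotated genes as background. Protein sequences, expression and other ChIP-seq were not analysed here. Counts at related homeobox and network genes are not reported here.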

Additional observations from a re-analysis of the deposited data

How the results depend on the processing

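Over 87 pairs of result and alternative, 63 stayed close (counts within 1.5 times the value given, shares and medians within its 95% interval) and 24 moved. The total of 15 peaks became 4 with 25 kb beyond each end, 8 with 50 kb, 6 with a fold enrichment of at least 5 and 5 when the nearest protein-coding TSS had to be that of the Pax gene. With a fold enrichment of at least 5, 3 of the 7 genes kept a peak, namely Pax2 with 4, Pax5 with 1 and Pax3 with 1, and Pax6 and Pax8 went to 0. Pax2 had 1 peak with 25 or 50 kb or by nearest TSS, Pax5 had 1 with 25 kb or by nearest TSS, and Pax8 had 0 with 25 kb. With 200 kb Pax3 had 4 and Pax6 had 2, and with a −log10 q of at least 5 Pax6 had 0. The median fold enrichment was 8.17 with 25 kb (4 peaks). The share with a Pax motif was 0% with a −log10 q of at least 5 and 53.3% with GTCAC in place of the motifs, a word chosen after seeing the data. The share of genes with a peak was 69.3% over all annotated genes, 61.2% with a fold enrichment of at least 5 and 62.1% with 50 kb. No paired analysis was possible because the list was called on merged replicates and no result comes from a test. Depth per peak is unknown, and 15 peaks leave wide intervals for any share.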
